A study of Saccharomyces cerevisiae with 9 samples.

Results

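The FRE genes of the budding yeast Saccharomyces cerevisiae, FRE1 to FRE8, encode a family of membrane reductases that act on ferric iron and cupric copper. They were taken by name, and the family has 8 of the 5928 genes in the deposited table. The question here was whether and how its members move in strains with altered Pcf11, a subunit of the complex that cuts new transcripts at their 3' ends and helps RNA polymerase II to stop.

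Fre proteins carry electrons from NADPH inside the cell, through FAD and heme held in the membrane, to metal ions on the other side. Reduced iron is then taken up by the oxidase Fet3 together with the permease Ftr1, and reduced copper by the transporter Ctr1. Fet3 itself needs copper, so that iron uptake depends on copper. The transcription factor Aft1 activates many of these genes when iron is low, and Mac1 activates others when copper is low.

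RNA was sequenced from 9 cultures in 3 groups of 3 biological replicates. All were strain w303, mating type alpha, and shared the marker mutations ade2-1, ura3-1, his3-11,15 and trp1-delta and a mutant leu2 allele, whose number the Pcf11-DNL label writes differently from the other labels. In all 3 groups TRP1 replaced the chromosomal PCF11, and a plasmid with LEU2 supplied the only allele of PCF11. The plasmid allele was pcf11-13 in Pcf11-13, pcf11-deltaN-link with V5 and MYC tags in Pcf11-DNL, and PCF11 with both tags in wild type. No tag is named for Pcf11-13. The labels call the plasmid a low copy centromeric one, and the genotypes name it pRS325. Cultures grew in YPAD at 30 °C to an OD600 of 1.0 to 1.2, with glucose as the treatment label, although the growth text also speaks of caffeine.

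The values are expected counts, the read counts per gene that RSEM estimates. Library totals lay between 11372819 and 15906466 expected counts, and the 8 FRE genes had 166 to 9291 counts in each library. Levels are given in CPM, counts relative to the library total after scaling by TMM, which evens out differences in library composition. Changes are log2 fold changes, negative where the first-named strain is lower. PCF11 transcripts averaged 648 ± 32.3 CPM in Pcf11-13, 67.4 ± 2.56 CPM in Pcf11-DNL and 84.7 ± 3.05 CPM in wild type (SD, n = 3 each). LEU2, the plasmid marker, averaged 121 ± 3.98 CPM in Pcf11-13, 219 ± 5.52 CPM in Pcf11-DNL and 199 ± 6.92 CPM in wild type. TRP1 averaged 97.6 ± 5.8 CPM in Pcf11-13, 107 ± 1.63 CPM in Pcf11-DNL and 103 ± 1.46 CPM in wild type. Where Pcf11-13 is compared, an effect of the allele, of its transcript level and of the tags cannot be told apart. Pcf11-DNL and wild type have the same tags by label. Between these, an effect of the allele and of its transcript level cannot be told apart. The 4 markers of alpha cells summed to 18172 to 23142 counts in Pcf11-13 libraries, 23892 to 26665 in Pcf11-DNL and 26570 to 31296 in wild type. The 5 markers of a cells summed to 349 to 443 counts in Pcf11-13, 257 to 288 in Pcf11-DNL and 202 to 297 in wild type. MFA2, an a-factor gene, was at 0 in all 9 libraries, and MFA1, the other one, was at 0 in 8 and at 1 count in 1. In the test described below, all 4 alpha markers were lower in Pcf11-13, where 30.9% of all genes tested were. In Pcf11-DNL 3 of 4 were lower, where 4.3% of all genes were. The 2 a markers tested, STE2 and BAR1, were higher in Pcf11-13, at 0.40 and 0.62, where 35.2% of all genes were. Neither passed in Pcf11-DNL. The part of these shifts in the results below was not tested. Wild type replicate 1 lay apart from its group. Its root mean square difference in log2 CPM was 0.207 to replicate 2 and 0.216 to replicate 3, against 0.134 between those, over 5372 genes. The Pcf11-13 libraries were 0.156 to 0.203 apart, and the Pcf11-DNL libraries 0.128 to 0.146. Results that rest on the wild type are therefore also given without it for FRE1 and FRE4.

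The clearest changes in the family were falls of FRE1 and FRE4 in both mutants, larger in Pcf11-13 than in Pcf11-DNL. FRE4 transcripts in Pcf11-13 stood at 0.279 of the wild type level, and FRE1 transcripts at 0.4. FRE6 was slightly lower in both mutants. FRE2 and FRE8 were slightly higher in Pcf11-13, and FRE3, FRE5 and FRE7 did not pass the test in either mutant against wild type.

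All 8 genes passed the filter on low counts. In Pcf11-13 against wild type, 5 of the 8 passed an adjusted p of 0.05 (edgeR quasi-likelihood F test, Benjamini-Hochberg over 5646 genes), where 66.1% of all genes tested did. Of these, 2 were higher, beside a background of 35.2%, and 3 were lower, beside 30.9%. The number of members called was thus near the share of all genes, and the size of 2 of the changes was not. FRE1 and FRE4 were past the test with a log2 fold change below -1, as were 35 of the 5646 genes, or 0.62%. The median log2 fold change was 0.07 over the 8 FRE genes and 0.03 over all genes tested.

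In Pcf11-DNL against wild type, 3 of 8 members passed, all of them lower. Members higher numbered 0 by edgeR, and also 0 at an unadjusted p under 0.05, by the DESeq2 Wald test and by limma-voom. The background was 13% in either direction, 8.73% higher and 4.3% lower. FRE4 alone of the family was past the test with a log2 fold change below -0.5, as were 19 genes in all, or 0.337%, and FRE1 lay just outside, at -0.50. The median was -0.13 over the family and 0.00 over all genes. In Pcf11-DNL against Pcf11-13, 2 members were higher and 2 lower, with backgrounds of 29.5% and 30.9%, and 60.3% in either direction. Here the median was -0.09 over the family and -0.02 over all genes. Libraries of the groups did not overlap in 5 of 8 members in Pcf11-13 against wild type (69.7% of all genes), 3 of 8 in Pcf11-DNL against wild type (32.8%) and 5 of 8 in Pcf11-DNL against Pcf11-13 (67%). The comparisons share libraries: both mutants are set against the same 3 wild type cultures.

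**Figure D1:**
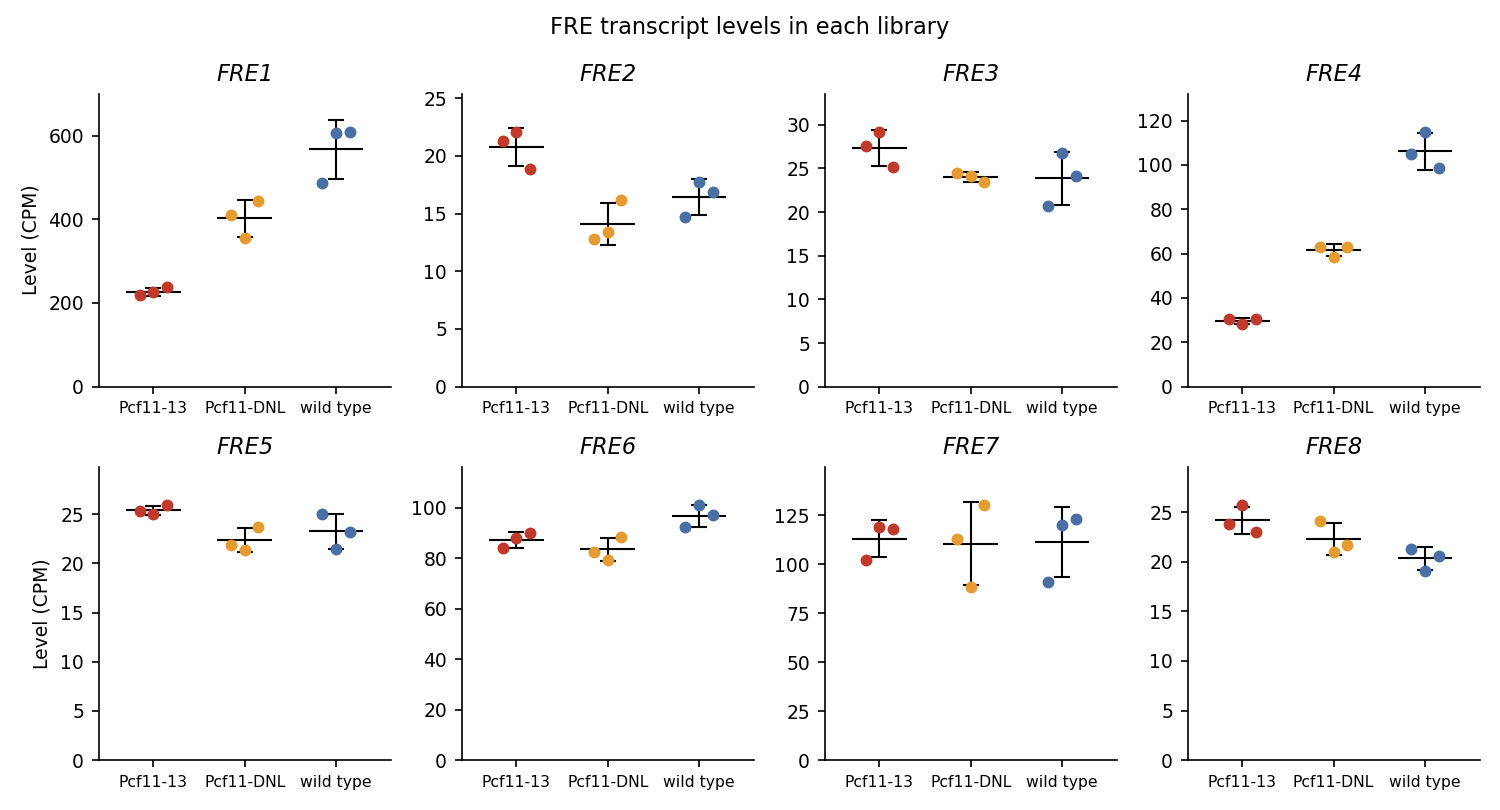
Transcript level of each FRE gene in CPM (vertical axes, starting at 0, with a scale of their own) in 3 libraries of each strain. Points are libraries in the order of their replicate numbers, lines are means and bars are SD, and the FRE1 and FRE4 points of the 3 strains do not overlap.

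FRE1 (YLR214W, chromosome XII, 568567 to 570627, plus strand, R64 reference assembly) encodes the main ferric and cupric reductase of the cell surface. Its level was 218, 226 and 237 CPM in Pcf11-13, 409, 355 and 443 CPM in Pcf11-DNL and 486, 607 and 609 CPM in wild type. The 3 strains did not overlap: every Pcf11-13 library was below every Pcf11-DNL library, and these were below every wild type library. The means were 227 ± 9.55 CPM in Pcf11-13, 402 ± 44.3 CPM in Pcf11-DNL and 567 ± 70.5 CPM in wild type (SD, n = 3 each). In bulk RNA, fewer cells that express a gene and less RNA per cell cannot be told apart.

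Set against wild type, FRE1 in Pcf11-13 fell by 1.32 ± 0.08 on the log2 scale (SE; edgeR adjusted p = 1.82e-09). It fell by 0.50 ± 0.08 in Pcf11-DNL (SE; edgeR adjusted p = 0.00072). Pcf11-DNL was 1.77-fold above Pcf11-13, a log2 difference of 0.82 ± 0.08 (SE; edgeR adjusted p = 5.64e-07). Among the 5646 genes, ordered from the lowest log2 fold change, FRE1 was at place 21 in Pcf11-13 and at place 30 in Pcf11-DNL. Without wild type replicate 1, its log2 fold change was -1.42 in Pcf11-13 and -0.60 in Pcf11-DNL.

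FRE1 is the one member with matches to TTTGCTC, a core of the sites that Mac1 is known to bind, in the 500 bases before its coding start. Both strands were searched. The 3 matches begin at positions -286, -269 and -96 from the start codon, and 8.59% of 5880 promoters of that length hold at least 1. The 300 bases before the coding start are shown because FRE1 is the most abundant member and they hold all 3 matches, in capitals. They are at chrXII:568267-568566, plus strand, from the RefSeq R64 genome.
FRE1 promoter: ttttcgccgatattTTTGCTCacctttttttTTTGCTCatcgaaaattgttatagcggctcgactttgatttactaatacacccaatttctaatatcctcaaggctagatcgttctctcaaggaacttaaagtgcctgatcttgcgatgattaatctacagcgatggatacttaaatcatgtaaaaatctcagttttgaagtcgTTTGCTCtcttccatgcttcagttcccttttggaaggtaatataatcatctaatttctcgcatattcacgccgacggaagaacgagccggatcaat
A match is a run of letters and does not show that Mac1 binds there. Only the exact letters TTTGCTC were searched, so other forms of a Mac1 site could have been missed. The FRE7 promoter holds tttgcgc, which has a g in place of the last t of TTTGCTC and was not counted. The part of Mac1 in these changes was not tested.

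FRE2 (YKL220C, chromosome XI, 9091 to 11226, minus strand) encodes the other well known surface reductase, which acts on ferric iron. It had 21.3, 22.1 and 18.9 CPM in Pcf11-13, 12.8, 13.4 and 16.2 CPM in Pcf11-DNL and 14.7, 17.7 and 16.9 CPM in wild type. All Pcf11-13 libraries were above all others, and the Pcf11-DNL and wild type libraries overlapped. FRE2 thus moved the other way from FRE1 in Pcf11-13.

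The means of FRE2 were 20.8 ± 1.67 CPM in Pcf11-13, 14.1 ± 1.83 CPM in Pcf11-DNL and 16.5 ± 1.55 CPM in wild type (SD, n = 3 each). FRE2 was higher in Pcf11-13 than in wild type, with a log2 fold change of 0.34 ± 0.10 (SE; edgeR adjusted p = 0.00963). Without Pcf11-13 replicate 2 this change was 0.29 and no longer passed (edgeR adjusted p = 0.0508). The Pcf11-DNL log2 fold change of -0.23 did not pass (95% interval -0.46 to 0.00, edgeR adjusted p = 0.18). Between the mutants, FRE2 was lower in Pcf11-DNL by a log2 difference of -0.56 ± 0.11 (SE; edgeR adjusted p = 0.000252).

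FRE4 (YNR060W, chromosome XIV, 739951 to 742110, plus strand) encodes a reductase of iron bound to siderophores, the iron carriers that microbes release. Its level was 30.5, 28.1 and 30.5 CPM in Pcf11-13, 63, 58.3 and 63 CPM in Pcf11-DNL and 105, 115 and 98.5 CPM in wild type. As with FRE1, the strains did not overlap and Pcf11-DNL lay between the other two. The means were 29.7 ± 1.39 CPM in Pcf11-13, 61.5 ± 2.73 CPM in Pcf11-DNL and 106 ± 8.39 CPM in wild type (SD, n = 3 each).

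In Pcf11-13, FRE4 fell by 1.84 ± 0.06 relative to wild type on the log2 scale (SE; edgeR adjusted p = 2.2e-12). That is place 4 of the 5646 genes from the lowest log2 fold change. In Pcf11-DNL it fell by 0.79 ± 0.06 (SE; edgeR adjusted p = 2.3e-07), at place 10. FRE4 was 2.07-fold higher in Pcf11-DNL than in Pcf11-13, a log2 difference of 1.05 ± 0.07 (SE; edgeR adjusted p = 3.43e-09). Leaving out wild type replicate 1 gave log2 fold changes of -1.85 in Pcf11-13 and -0.80 in Pcf11-DNL.

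FRE3 (YOR381W, chromosome XV, 1055545 to 1057680, plus strand) also encodes a siderophore iron reductase. It had 27.6, 29.2 and 25.2 CPM in Pcf11-13, 24.5, 24.1 and 23.4 CPM in Pcf11-DNL and 20.7, 26.8 and 24.1 CPM in wild type. The wild type range overlapped that of both mutants, so that FRE3 did not share the pattern of FRE4. Its log2 fold change in Pcf11-13 was 0.19 ± 0.09 (SE; edgeR adjusted p = 0.063). For Pcf11-DNL it was 0.00 ± 0.09 (SE; edgeR adjusted p = 0.983), and the 95% interval ran from -0.18 to 0.19. In Pcf11-DNL against Pcf11-13 the log2 difference was -0.19 ± 0.09 (SE; edgeR adjusted p = 0.0727), although the libraries did not overlap.

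Whether FRE3 passes hung on single libraries. In Pcf11-13 against wild type it passed without Pcf11-13 replicate 3, at 0.24 (edgeR adjusted p = 0.0363), and without wild type replicate 2, at 0.28 (edgeR adjusted p = 0.0137). In Pcf11-DNL against Pcf11-13 it passed without Pcf11-13 replicate 3, at -0.24 (edgeR adjusted p = 0.0433).

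**Figure D2:**
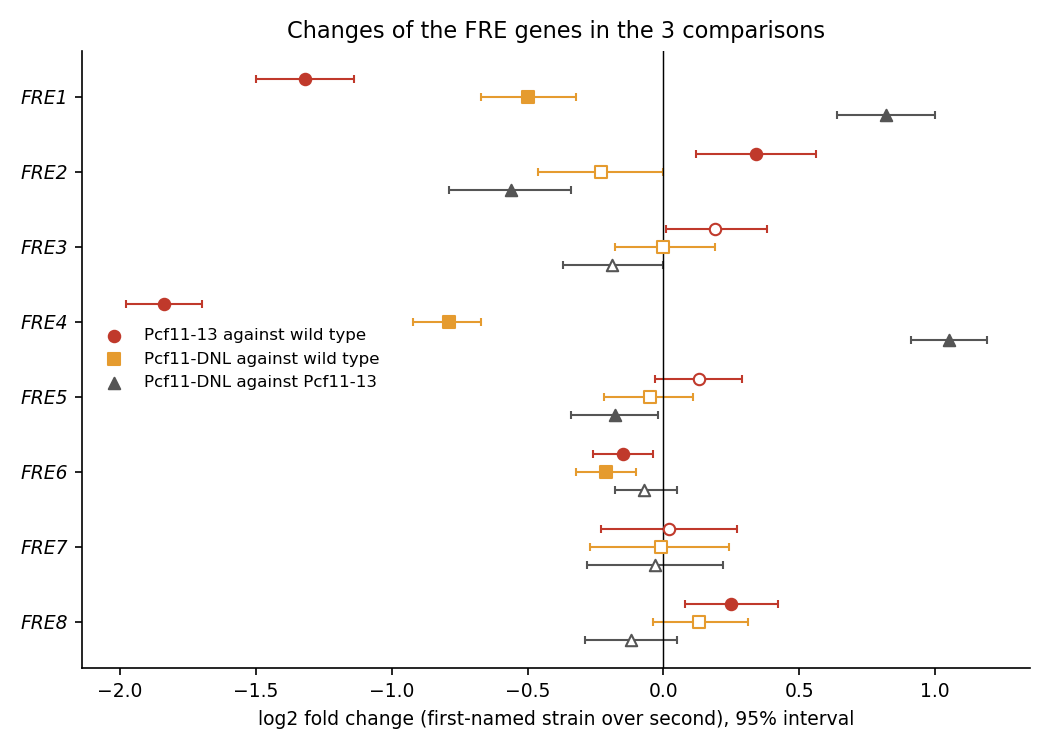
log2 fold change of each FRE gene (horizontal axis, first-named strain over second) with its 95% interval from the edgeR fit. Filled symbols passed an adjusted p of 0.05 and open ones did not, and FRE1 and FRE4 lie far to the left of 0 in both mutants against wild type.

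FRE6 (YLL051C, chromosome XII, 37333 to 39471, minus strand) encodes a reductase of the vacuole membrane, which serves the release of stored metal. It had 84, 87.9 and 90.1 CPM in Pcf11-13, 82.6, 79.4 and 88.5 CPM in Pcf11-DNL and 92.2, 101 and 97.2 CPM in wild type. All mutant libraries were below all wild type libraries, by little, and the mutants overlapped each other. FRE6 was 0.902 of the wild type level in Pcf11-13, a log2 fold change of -0.15 ± 0.05 (SE; edgeR adjusted p = 0.0185). In Pcf11-DNL it was 0.862 of that level, a log2 fold change of -0.21 ± 0.05 (SE; edgeR adjusted p = 0.0116). Between the mutants the log2 difference was -0.07 (95% interval -0.18 to 0.05, edgeR adjusted p = 0.293).

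The small FRE6 changes depended on single libraries and on the scaling. In Pcf11-13 the call was lost without Pcf11-13 replicate 1, at -0.12 (edgeR adjusted p = 0.0793), or without wild type replicate 2, at -0.12 (edgeR adjusted p = 0.0834). In Pcf11-DNL it was lost without Pcf11-DNL replicate 2, at -0.18 (edgeR adjusted p = 0.0643), or without wild type replicate 2, at -0.18 (edgeR adjusted p = 0.0507). Scaled by library totals, FRE6 in Pcf11-13 stood at 0.064 (edgeR adjusted p = 0.321), and FRE6 in Pcf11-DNL at -0.16 (edgeR adjusted p = 0.0719).

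FRE7 (YOL152W, chromosome XV, 40748 to 42610, plus strand) encodes a putative reductase whose expression is known to rise when copper is low. It had 102, 119 and 118 CPM in Pcf11-13, 113, 88.3 and 130 CPM in Pcf11-DNL and 90.7, 120 and 123 CPM in wild type. All strains overlapped, and the spread within a strain was wider than any difference between means. The log2 fold change was 0.02 in Pcf11-13 (95% interval -0.23 to 0.27, edgeR adjusted p = 0.903), and Pcf11-DNL gave -0.01 (95% interval -0.27 to 0.24, edgeR adjusted p = 0.956). Pcf11-DNL against Pcf11-13 gave -0.03 (95% interval -0.28 to 0.22, edgeR adjusted p = 0.829).

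FRE5 (YOR384W, chromosome XV, 1061564 to 1063648, plus strand) encodes a putative reductase whose protein has been found in mitochondria. It had 25.3, 25 and 25.9 CPM in Pcf11-13, 21.9, 21.4 and 23.7 CPM in Pcf11-DNL and 25, 21.5 and 23.2 CPM in wild type. The wild type values overlapped both mutants, and the mutants did not overlap each other. Against wild type the log2 fold change was 0.13 ± 0.08 in Pcf11-13 (SE; edgeR adjusted p = 0.14), whereas Pcf11-DNL gave -0.05 ± 0.08 (SE; edgeR adjusted p = 0.675). FRE5 was lower in Pcf11-DNL than in Pcf11-13 by -0.18 ± 0.08 (SE; edgeR adjusted p = 0.0446). This call was lost without any 1 of the Pcf11-13 replicates, with edgeR adjusted p of 0.0814, 0.085 and 0.107 for replicates 1, 2 and 3. It was also lost without Pcf11-DNL replicate 1 (edgeR adjusted p = 0.109) or 2 (edgeR adjusted p = 0.141).

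FRE8 (YLR047C, chromosome XII, 239347 to 241407, minus strand) encodes a putative reductase. It had 23.8, 25.7 and 23 CPM in Pcf11-13, 24.1, 21 and 21.7 CPM in Pcf11-DNL and 21.3, 19.1 and 20.6 CPM in wild type. The Pcf11-13 libraries were above the wild type ones, and Pcf11-DNL overlapped both. In Pcf11-13 against wild type the log2 fold change was 0.25 ± 0.08 (SE; edgeR adjusted p = 0.0119). It did not pass without Pcf11-13 replicate 2, at 0.20 (edgeR adjusted p = 0.0737), or without wild type replicate 2, at 0.21 (edgeR adjusted p = 0.0587). The FRE8 value was 0.13 in Pcf11-DNL (edgeR adjusted p = 0.289) and -0.12 between the mutants (edgeR adjusted p = 0.215).

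The scaling of libraries bears on the small changes. With library totals in place of TMM, the median log2 fold change of all genes was 0.25 in Pcf11-13 against wild type, 0.051 in Pcf11-DNL against wild type and -0.18 in Pcf11-DNL against Pcf11-13. On that scale FRE2, FRE3, FRE5 and FRE8 were at 0.55, 0.40, 0.34 and 0.46 in Pcf11-13 against wild type and all passed. FRE1 was at -1.11 and FRE4 at -1.63.

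Levels of different genes were compared per kb of coding length, which runs from 1863 bases in FRE7 to 2160 in FRE4. FRE1 was first in every strain, with 110 CPM per kb in Pcf11-13, 195 in Pcf11-DNL and 275 in wild type. FRE7 was next, at 60.6, 59.3 and 59.6 CPM per kb in the same strains. In wild type, FRE7, FRE4 (49.2) and FRE6 (45.2 CPM per kb) overlapped with their neighbours in this order. FRE4 changed its place in this order: it stood above FRE6 in the wild type means and below FRE6 in every mutant library.

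At the low end in wild type stood FRE3 and FRE5, both at 11.2 CPM per kb, FRE8 at 9.87 and FRE2 at 7.7. FRE3, FRE5 and FRE8 overlapped in that order, and FRE2 was below FRE8 in every library. FRE4 in Pcf11-13, at 13.8 CPM per kb, overlapped with FRE3 at 12.8, which overlapped with FRE5 at 12.2, and that with FRE8 at 11.7. In Pcf11-DNL, FRE4 at 28.4 CPM per kb stayed above FRE3 at 11.2 in every library. FRE2 was last in all 3 strains, at 9.74 CPM per kb in Pcf11-13 and 6.62 in Pcf11-DNL.

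Summed over the 8 genes, the family had 555 ± 19.3 CPM in Pcf11-13, 741 ± 75 CPM in Pcf11-DNL and 965 ± 95 CPM in wild type (SD, n = 3 each). Without FRE1 the sums were 327 ± 11.9 CPM in Pcf11-13, 338 ± 30.7 CPM in Pcf11-DNL and 398 ± 25.9 CPM in wild type. FRE1 made up 40.6% ± 0.808 of the family per kb in Pcf11-13, 54% ± 0.416 in Pcf11-DNL and 58.6% ± 1.63 in wild type. The share of FRE4 was 5.07% ± 0.355 in Pcf11-13, 7.91% ± 0.512 in Pcf11-DNL and 10.6% ± 1.27 in wild type. FRE7, with a mean of 113 CPM in Pcf11-13 and 111 CPM in each of the others, held 22.3% in Pcf11-13, 16.3% in Pcf11-DNL and 12.7% in wild type. These shares describe the make-up of reductase transcripts, and no test was run on them.

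**Figure D3:**
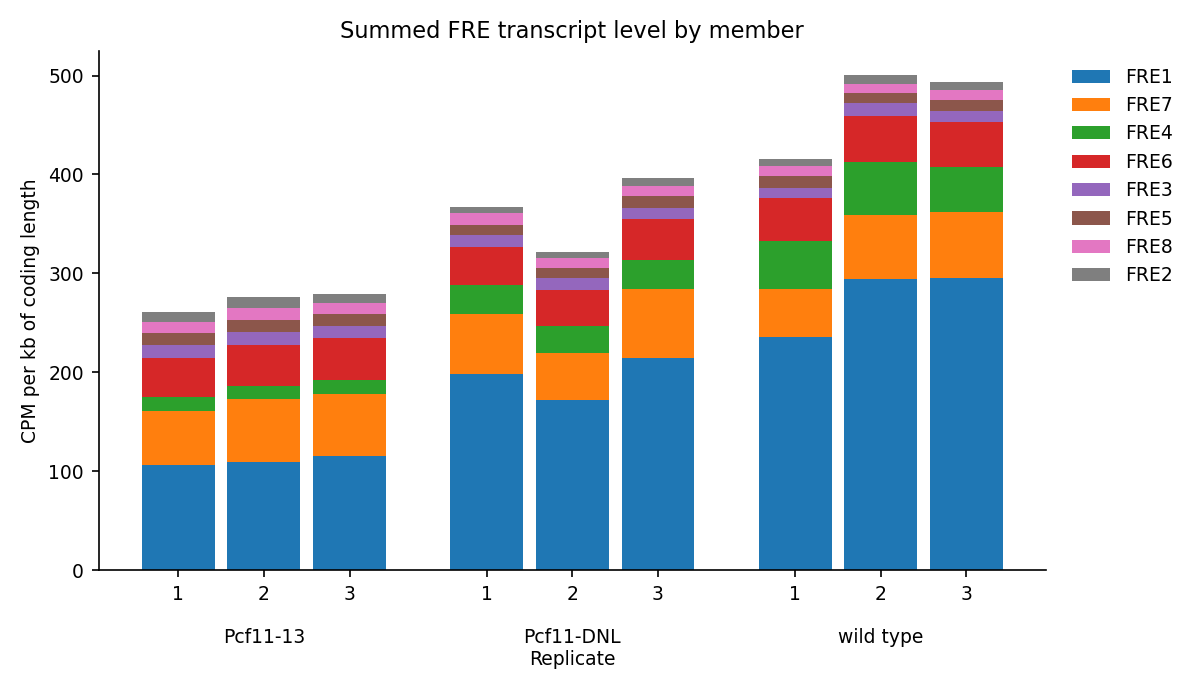
Summed level of the FRE family in CPM per kb of coding length (vertical axis) in each of the 3 libraries of a strain, stacked by member. The means of the sums were 272 CPM per kb in Pcf11-13, 362 in Pcf11-DNL and 469 in wild type, and the FRE1 segment accounts for most of the difference.

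Within each strain, FRE1, FRE6 and FRE7 were lowest in the same library. These were Pcf11-13 replicate 1, Pcf11-DNL replicate 2 and wild type replicate 1. CTR1, the high-affinity copper transporter, was lowest in the same libraries, at 189 CPM in that Pcf11-13 library, 244 CPM in that of Pcf11-DNL and 298 CPM in that of wild type. REE1 and CTR3, listed with it, were lowest there too, REE1 at 180 CPM in Pcf11-13, 146 CPM in Pcf11-DNL and 134 CPM in wild type, and CTR3 at 11.4 CPM in Pcf11-13, 8.5 CPM in Pcf11-DNL and 6.03 CPM in wild type. IRC7, the other gene of that list, held between 339 and 356 CPM in all 9 libraries and was not. Of the 5646 genes tested, 389, or 6.89%, were lowest in these 3 libraries. This comparison was chosen with the values in view and carries no test.

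Of the 8 promoters, 6 hold a match to TGCACCC, the longer form of the Aft1 core GCACCC, which it contains. The window was the 500 bases before the coding start, searched on both strands, and 2.31% of 5880 promoters hold a match. They are those of FRE2, FRE3, FRE4, FRE5, FRE6 and FRE8. The shorter GCACCC also matched 6 of the 8, and 7.62% of all. FRE1 and FRE7 had neither. Each match is shown with 20 bases on either side, on the strand of the gene and from the RefSeq R64 genome, because genes with the same letters moved differently here. Capitals mark TGCACCC, or GGGTGCA where it lies on the other strand.
FRE2 at chrXI:11630-11676, minus strand: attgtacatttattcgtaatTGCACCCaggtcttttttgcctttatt
FRE3 at chrXV:1055098-1055144, plus strand: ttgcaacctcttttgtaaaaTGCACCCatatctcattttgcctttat
FRE4 at chrXIV:739494-739540, plus strand: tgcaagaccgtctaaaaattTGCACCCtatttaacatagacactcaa
FRE5 at chrXV:1061213-1061259, plus strand: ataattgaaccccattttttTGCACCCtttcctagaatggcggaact
FRE5 at chrXV:1061314-1061360, plus strand: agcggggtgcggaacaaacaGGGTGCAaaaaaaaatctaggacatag
FRE6 at chrXII:39587-39633, minus strand: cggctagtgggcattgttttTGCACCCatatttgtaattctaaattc
FRE8 at chrXII:241711-241757, minus strand: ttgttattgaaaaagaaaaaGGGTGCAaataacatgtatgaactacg

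In FRE2, FRE3 and FRE4 the match begins 430, 427 and 437 bases before the start codon, all on the strand of the gene. These 3 also share the most coding sequence: FRE2 and FRE3 were identical at 76.8% of bases, FRE2 and FRE4 at 62.5%, and FRE3 and FRE4 at 61.9%. In Pcf11-13 FRE2 was higher, with a log2 fold change of 0.34, and FRE4 lower, with -1.84, while FRE3, at 0.19, did not pass the test. The FRE5 matches begin 331 and 230 bases before the start codon, that of FRE6 142 bases and that of FRE8 330 bases before it. FRE1 fell without a match to TGCACCC or GCACCC in this window. Only these exact letters were searched, so other forms of an Aft1 site could have been missed. The FRE1 stretch printed above holds tacaccc, which has an a in place of the g of TGCACCC and was not counted. The part of Aft1 in these changes was not tested.

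The 300 bases of the FRE4 promoter around its match are shown because FRE4 had the largest change in the family. They cover 500 to 201 bases before the coding start, at chrXIV:739451-739750, plus strand, RefSeq R64, with TGCACCC in capitals.
FRE4 promoter: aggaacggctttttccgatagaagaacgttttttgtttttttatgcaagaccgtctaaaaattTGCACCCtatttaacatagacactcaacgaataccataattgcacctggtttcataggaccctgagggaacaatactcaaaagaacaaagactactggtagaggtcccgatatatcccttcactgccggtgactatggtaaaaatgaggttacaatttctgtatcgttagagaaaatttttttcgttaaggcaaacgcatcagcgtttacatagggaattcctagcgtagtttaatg

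The other genes of iron and copper handling were examined through lists of known members. Beside their counts, 66.1% of all genes tested passed in Pcf11-13, 35.2% higher and 30.9% lower, and 13% passed in Pcf11-DNL, 8.73% higher and 4.3% lower. The median log2 fold change over all genes was 0.03 in Pcf11-13 and 0.00 in Pcf11-DNL. In reductive iron uptake and the loading of copper into Fet3, 1 of 6 genes was higher and 3 were lower in Pcf11-13, and 0 were higher and 3 lower in Pcf11-DNL, with medians of -0.14 and -0.23. With library totals 2 were higher and 2 lower in Pcf11-13. FET3, the multicopper oxidase that takes iron from the reductases, had 95 ± 2.97 CPM in Pcf11-13, 181 ± 13.9 CPM in Pcf11-DNL and 332 ± 26.5 CPM in wild type (SD, n = 3 each). Its log2 fold change was -1.81 in Pcf11-13 (edgeR adjusted p = 2.3e-12), while Pcf11-DNL gave -0.87 (edgeR adjusted p = 1.21e-07). FTR1, its permease partner, was lower by less, at -0.66 in Pcf11-13 and -0.50 in Pcf11-DNL. FET5, the vacuolar oxidase like Fet3, was at -0.21 in Pcf11-13 but at 0.00 with library totals. ATX1, a copper chaperone, was higher in Pcf11-13, at 0.45, and did not pass without Pcf11-13 replicate 2 (edgeR adjusted p = 0.0662). No gene of this list was higher in Pcf11-DNL at an adjusted p under 0.05 by edgeR, the DESeq2 Wald test or limma-voom, and each of these gave 1 at an unadjusted p under 0.05. CCC2, the copper pump that loads Fet3, was lower in Pcf11-DNL alone of the mutants, at -0.32 against wild type, with -0.06 in Pcf11-13. The 2 mutants differed in CCC2, with a log2 difference of -0.26 (edgeR adjusted p = 0.00219).

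Of 7 genes of siderophore uptake, 1 was higher and 4 were lower in Pcf11-13, with a median log2 fold change of -0.68, beside a background of 35.2% higher and 30.9% lower. In Pcf11-DNL, with a background of 8.73% higher and 4.3% lower, 0 were higher and 4 lower, with a median of -0.42, and 0 were higher at an unadjusted p under 0.05 or by the DESeq2 Wald test and limma-voom. SIT1, a siderophore transporter, was at -0.86 in Pcf11-13 and -0.77 in Pcf11-DNL. ENB1, the enterobactin transporter, was at -0.68 in Pcf11-13 and -0.42 in Pcf11-DNL. FIT2 and FIT3, cell wall proteins that help retain siderophores, were at -0.84 and -0.68 in Pcf11-13 and at -1.05 and -0.70 in Pcf11-DNL. ARN2, another transporter of this family, was higher in Pcf11-13, at 0.23.

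Other genes of the low-iron response, where they passed in Pcf11-13, were higher, the opposite direction to FRE1 and FRE4. Of 9 tested, 5 were higher, where 35.2% of all genes were, and 0 lower, where 30.9% were, with a median log2 fold change of 0.27. At an unadjusted p under 0.05, or by the DESeq2 Wald test and limma-voom, 0 were lower. With library totals 7 were higher. Leaving out wild type replicate 1 gave 4 higher and 0 lower, with a median of 0.16. HMX1, the heme oxygenase, was at 0.94, and ECM4, a glutathione transferase, at 1.11. VHT1, the biotin transporter, was at 0.45, and MRS4, a mitochondrial iron carrier, at 0.32. In Pcf11-DNL 0 of the 9 passed against wild type by edgeR, where 1 was higher and 2 were lower at an unadjusted p under 0.05. The DESeq2 Wald test called 1 lower there and limma-voom called 0. In Pcf11-DNL, 5 of the 9 were lower than in Pcf11-13, where 30.9% of all genes were.

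The remaining lists moved in mixed directions, beside a background in Pcf11-13 of 35.2% higher and 30.9% lower, and in Pcf11-DNL of 8.73% higher and 4.3% lower. Of 4 genes of the low-copper response, 2 were higher (1 without wild type replicate 1) and 1 lower in Pcf11-13, and 0 were higher and 1 lower in Pcf11-DNL. CTR1 averaged 201 ± 12.7 CPM in Pcf11-13, 283 ± 35.6 CPM in Pcf11-DNL and 354 ± 48.9 CPM in wild type (SD, n = 3 each), with log2 fold changes of -0.82 in Pcf11-13 and -0.33 in Pcf11-DNL against wild type. The fall in Pcf11-DNL (edgeR adjusted p = 0.0282) did not pass by the DESeq2 Wald test (adjusted p = 0.0696), with library totals (edgeR adjusted p = 0.0821) or without Pcf11-DNL replicate 1 or 2 or wild type replicate 2 or 3 (edgeR adjusted p between 0.0604 and 0.142). CTR3, the other high-affinity copper transporter, was higher in Pcf11-13, at 0.93, and 0 genes of the list were higher in Pcf11-DNL at an adjusted p under 0.05 by edgeR, the DESeq2 Wald test or limma-voom. Each of these gave 1 at an unadjusted p under 0.05, in edgeR CTR3. REE1 was at 0.21 in Pcf11-13 and at 0.09 without wild type replicate 1, where it did not pass (edgeR adjusted p = 0.188), nor did it without Pcf11-13 replicate 2 or 3 (edgeR adjusted p = 0.149 and 0.077). Of 10 regulators, 1 was higher and 5 lower in Pcf11-13, and 1 was higher and 2 lower in Pcf11-DNL, with medians of -0.06 and -0.01. CTH1, an RNA-binding protein of the low-iron response, was higher in both mutants, at 0.30 in Pcf11-13 and 0.20 in Pcf11-DNL, where it did not pass by the DESeq2 Wald test (adjusted p = 0.0742) or without Pcf11-DNL replicate 2 or 3 or wild type replicate 2 or 3 (edgeR adjusted p between 0.0642 and 0.131). GRX4, a glutaredoxin that restrains Aft1, was at -0.33 in Pcf11-13. FRA1, which acts with it, was at -0.17 in Pcf11-DNL, a call lost without Pcf11-DNL replicate 1 (edgeR adjusted p = 0.064). AFT1, the activator of the low-iron response, was at -0.28 in Pcf11-13 and -0.32 in Pcf11-DNL. MAC1 was at -0.23 in Pcf11-13 (edgeR adjusted p = 0.00507), and its value in Pcf11-DNL was -0.02 (edgeR adjusted p = 0.872). With library totals GRX4, AFT1 and MAC1 no longer passed in Pcf11-13, at -0.12, -0.06 and -0.01, and the regulators split into 4 higher and 0 lower there.

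For the next lists too, 66.1% of all genes passed in Pcf11-13, 35.2% higher and 30.9% lower, and 13% in Pcf11-DNL. In low-affinity uptake and storage, 1 of 5 genes was higher and 2 were lower in Pcf11-13, and 0 were higher and 3 lower in Pcf11-DNL (1 without wild type replicate 1). There 0 were higher at an unadjusted p under 0.05, by the DESeq2 Wald test or by limma-voom. With library totals the counts were 3 higher and 2 lower in Pcf11-13 and 0 in Pcf11-DNL. CTR2, a vacuolar copper transporter, was at -0.37 in Pcf11-13, and SMF1, a manganese transporter, at 0.22. The Pcf11-DNL calls were small: CCC1, the vacuolar iron importer, was at -0.17 (edgeR adjusted p = 0.0255), and SMF2, another manganese transporter, at -0.15 (edgeR adjusted p = 0.0489). Without wild type replicate 1 neither passed (edgeR adjusted p = 0.0862 for CCC1 and 0.157 for SMF2). The same holds for each without any 1 of the Pcf11-DNL replicates, and for SMF2 without wild type replicate 2. FET4, the low-affinity iron transporter, was at -0.57 in Pcf11-13 and -0.15 in Pcf11-DNL. The FET4 call in Pcf11-DNL (edgeR adjusted p = 0.0411) was lost with library totals (edgeR adjusted p = 0.182) and when Pcf11-DNL replicate 1, 2 or 3 or wild type replicate 2 or 3 was left out. Of 8 genes of heme synthesis, the cofactor of the reductases, 2 were higher and 3 lower in Pcf11-13, near the 66.1% of all genes that passed. With library totals 5 were higher and 2 lower. In Pcf11-DNL 0 of the 8 passed by edgeR, the DESeq2 Wald test or limma-voom, and 1 was higher at an unadjusted p under 0.05. HEM4 was at 2.83 in Pcf11-13, and HEM1, the initial enzyme of the pathway, at -0.46. HEM13, coproporphyrinogen oxidase, was at -0.39. HEM15, ferrochelatase, was at -0.19, but at 0.02 with library totals, and did not pass without Pcf11-13 replicate 3 (edgeR adjusted p = 0.0514). In copper detoxification, CUP1-1 and CUP1-2 had identical values and are near-identical copies, so their separate counts are uncertain. They were the 2 of 4 genes that were lower in Pcf11-13, at -0.69, and 0 of the 4 passed in Pcf11-DNL by edgeR, the DESeq2 Wald test or limma-voom, with these 2 higher at an unadjusted p under 0.05. AIM14, a relative of the FRE genes outside the numbered series, was at 0.35 in Pcf11-13 (edgeR adjusted p = 6.69e-06). Pcf11-DNL gave -0.08 for it (edgeR adjusted p = 0.267).

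For the 2 members with the widest range of group means, the genes with the most similar profile over the 9 libraries were sought. Likeness was the root mean square difference of log2 CPM, each gene centred on its mean, among 5372 genes. FET3 was nearest to FRE4, at 0.081, followed by PAM16 (YJL104W) at 0.173 and VMA9 (YCL005W-A) at 0.193. FRE4 spanned 1.84 on the log2 scale over the group means, so that FET3 followed it closely. FRE1 was 0.245 from FRE4, and the other members were 0.705 to 0.932 from it. Nearest to FRE1, with a span of 1.31, were EFM3 (YJR129C) at 0.131, ADE16 (YLR028C) at 0.159 and YNL134C at 0.16. These values describe 9 shared libraries in 3 strains, which set most of each profile.

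**Figure D4:**
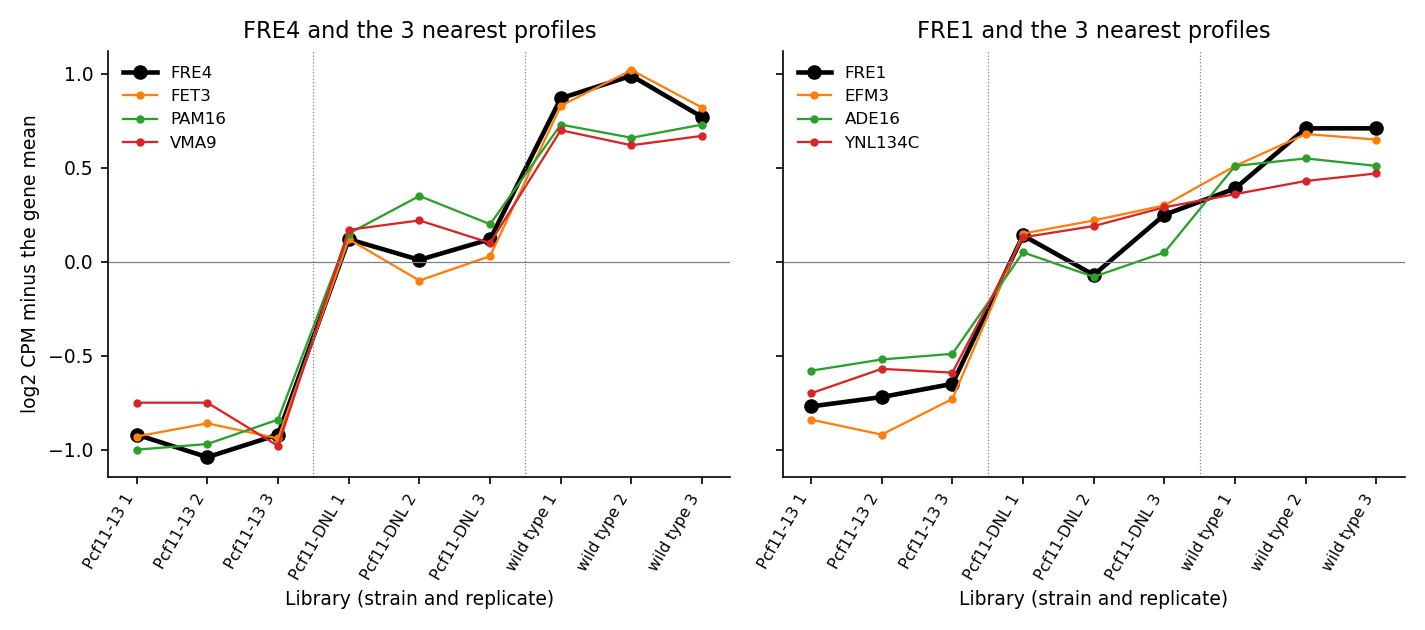
log2 CPM minus the mean of the gene (vertical axes) for FRE4 (left) and FRE1 (right) with the 3 genes of most similar profile, in each library by strain and replicate number (horizontal axes). FET3, at a root mean square difference of 0.081, runs closest to FRE4.

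No FRE gene overlaps another annotated gene in R64, and no window of 50 bases of an FRE coding sequence occurs elsewhere in that genome. The genes beside them were compared in the same test, which 66.1% of all genes passed in Pcf11-13 and 13% in Pcf11-DNL. On the downstream side of FRE4 lies YNR061C, on the opposite strand and 770 bases away, and upstream lies MNT4, a mannosyltransferase gene 1405 bases away on the same strand. Both were higher in Pcf11-13, at 0.35 and 0.40, where FRE4 was at -1.84. Upstream of FRE1, CRR1 lies 644 bases away on the opposite strand, and it was at -0.86 in Pcf11-13 and at -0.24 in Pcf11-DNL (not past the test). Downstream, CDC123 lies 148 bases away on the opposite strand and was at -0.14 in Pcf11-13. MCH2, downstream of FRE2 on the opposite strand and 1562 bases away, was at 1.50 in Pcf11-13. AQY2, an aquaporin gene 971 bases downstream of FRE6 on the same strand, was at -1.38 in Pcf11-13 and -0.48 in Pcf11-DNL. Also higher in Pcf11-13 were RDR1 upstream of FRE3, at 0.33, and COF1 upstream of FRE6, at 0.18. So were YOL153C upstream of FRE7, at 0.55, and YLR046C downstream of FRE8, at 0.46. RPS0B, upstream of FRE8, was at -0.51 in Pcf11-13. GRE2, downstream of FRE7, was at -0.32 in Pcf11-13 and -0.33 in Pcf11-DNL. COS9, upstream of FRE2, did not pass in either mutant against wild type.

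FRE3 and FRE5 lie in 1 cluster on chromosome XV with FIT2 and FIT3 between them. Both FIT genes were lower in both mutants, and neither FRE3 nor FRE5 passed the test in either. FIT3 starts 508 bases from FRE5 and is read away from it. YOR381W-A, between FRE3 and FIT2, had 0 counts in all 9 libraries and was not tested. Beyond FRE5, YOR385W was at -0.89 in Pcf11-13 and at 0.20 in Pcf11-DNL (not past the test).

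**Figure D5:**
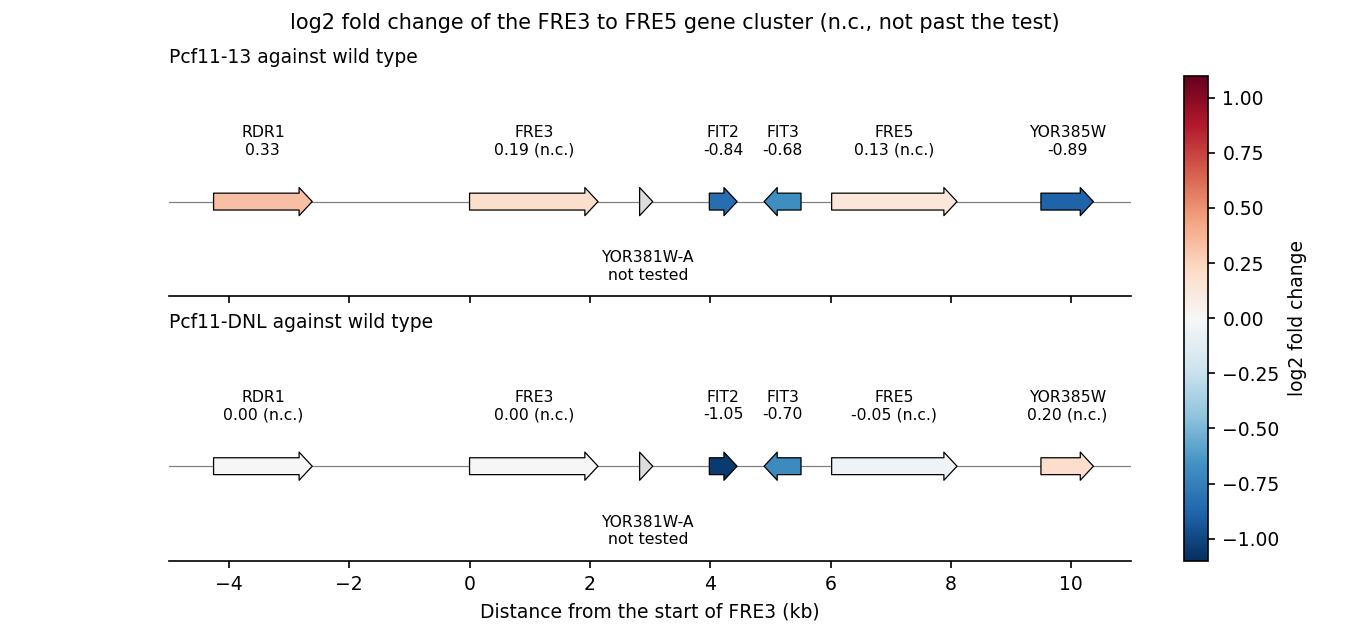
Map of the FRE3 to FRE5 cluster, with distance from the start of FRE3 in kb (horizontal axis), arrows for genes in their direction of transcription and colour for the log2 fold change of each mutant against wild type. FIT2 and FIT3 are blue (lower) in both mutants, between FRE3 and FRE5, which are pale and marked n.c. because they did not pass the test.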

How the data were processed

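Values are those of 9 libraries of poly(A)-selected RNA read as pairs of 150 bases, 3 biological replicates per strain, per the labels. The authors deposited expected counts per gene, and the submitters' processing notes name Trimmomatic 0.38, FastQC, STAR 2.6.1b, RSEM 1.3, DESeq2 1.26.0 and the build sacCer3. Roles of these tools, the strand setting and the annotation: not given in the sources used here. Of the deposited expected counts, 10.8% were not whole numbers, but 0 of the 72 FRE values were. Library totals limit precision through the counting error of each gene's counts, and spread between replicates adds to it. The SD of FRE1 in wild type was 12.4% of its mean CPM.

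Counts were rounded, filtered with filterByExpr (minimum count 10; 5646 of 5928 genes kept), scaled with TMM and fitted in 1 edgeR 4.0.16 quasi-likelihood model over all 9 libraries (R 4.3.3). Every adjusted p is from its two-sided F test with Benjamini-Hochberg adjustment over all 5646 genes, except where another tool is named. CPM are counts relative to the TMM-scaled library total, and intervals are at 95%. The fit was tested on simulated data. Positions, coding lengths and sequences are from R64, the assembly of sacCer3, a different strain from w303, and 5919 gene names matched.

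The members and lists were chosen with earlier results of these data known. The genes named are all members, their neighbours, up to 4 called genes per iron or copper list in each mutant against wild type, those with the smallest adjusted p, and the 3 nearest profiles, and others are said to be chosen later or are given for contrast. Same-numbered libraries of Pcf11-13 and wild type deviated together (correlations of residuals 0.42, 0.284 and 0.263). A differently numbered pair, Pcf11-13 replicate 1 with Pcf11-DNL replicate 3, gave 0.315. The numbers may pair Pcf11-13 with wild type, but no label states a pairing. The main fit used no pairing, and replicate blocks were run as an alternative. Alternatives were DESeq2 size factors, library totals, no filter, a mean of at least 5 CPM, the DESeq2 1.42.0 Wald test, limma-voom (limma 3.58.1), only the groups compared, replicate blocks and leaving out each library.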

Additional observations from a re-analysis of the deposited data

How the results depend on the processing

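FRE1 and FRE4 passed in all 3 comparisons under every alternative run, with FRE4 between -1.89 and -1.63 in Pcf11-13 and between -0.85 and -0.73 in Pcf11-DNL against wild type, and FRE1 between -1.42 and -1.11 and between -0.60 and -0.41. Library totals gave 3372 genes higher and 861 lower in Pcf11-13 against wild type, where TMM gave 1988 and 1744, and 4 FRE genes higher, with FRE3 at 0.40, FRE5 at 0.34 and FRE6 at 0.064. In Pcf11-DNL against wild type they gave 124 genes lower, where TMM gave 243, and FRE7 at 0.033. In Pcf11-DNL against Pcf11-13 they gave 870 higher and 2982 lower, where TMM gave 1665 and 1742, and 5 FRE genes lower, with FRE3 at -0.35, FRE6 at -0.23 and FRE8 at -0.28. DESeq2 size factors put FRE7 at -0.0044 in Pcf11-13 and FRE3 at -0.0065 in Pcf11-DNL against wild type, and the DESeq2 Wald test put FRE3 at -0.0051. Both left 1 FRE gene lower in Pcf11-DNL than in Pcf11-13, since FRE5 did not pass (adjusted p = 0.0563 in edgeR on those size factors and 0.127 in the Wald test). Fitting only the groups compared gave 155 genes lower in Pcf11-DNL against wild type, and FRE3 passed in Pcf11-DNL against Pcf11-13 (edgeR adjusted p = 0.0329). The replicate block changed no FRE call against wild type: FRE4 in Pcf11-13 stayed at -1.84 (edgeR adjusted p = 4.81e-12). In Pcf11-DNL against Pcf11-13, the block fitted to those groups alone let FRE3 pass (edgeR adjusted p = 0.0362). Residuals of same-numbered libraries correlated at 0.0558, 0.304 and 0.0841 for Pcf11-DNL with wild type and at -0.112, 0.204 and -0.0936 for Pcf11-DNL with Pcf11-13, so numbers were not taken to pair these. Leaving out 1 library gave 0 to 3 FRE genes higher in Pcf11-13 against wild type, with FRE7 between -0.10 and 0.095. For Pcf11-DNL against wild type it gave 129 to 233 genes lower, FRE3 between -0.08 and 0.094 and FRE7 between -0.14 and 0.12. For Pcf11-DNL against Pcf11-13 it gave 1 to 2 FRE genes lower and FRE7 between -0.15 and 0.11. Among the listed genes named, FET5 in Pcf11-13 turned to 0.00 with library totals. Counts of lists and values of their genes under these settings were added after the data were seen. Without wild type replicate 1, 5 FRE genes again passed in Pcf11-13 and 3 in Pcf11-DNL against wild type. The cause of these shifts was not tested. With 3 replicates, changes as small as those of FRE6 and FRE8 lie near the limit of the design.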
